A study of Mus musculus with 19 samples.

Results

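The circadian clock genes described here are 10 genes of the molecular clock, namely Arntl (also called Bmal1), Clock, Npas2, Per1, Per2, Per3, Cry1, Cry2, Nr1d1 and Dbp. They were chosen by gene symbol, and each was read from the probe set that carries its symbol alone and has the highest mean over the 19 arrays. A probe set was found for 9 of the 10 genes, among 19938 genes with such a probe set on the array, and Npas2 is not analysed here. Each of the 9 had 1 probe set of its own, so no second reading of the same gene was available. No filter on low values was applied, and all 9 stayed in every comparison.

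The arrays measured RNA from the hippocampus of C57BL/6J mice 6 months old. The mice were either APP-PS1 transgenic animals (APPSwe-PS1deltaE9) or wild-type littermates, and they ate chow with ibuprofen at 375 ppm or the same chow without it from 3 to 6 months of age. There were 5 arrays of APP-PS1 mice on ibuprofen chow, 5 of APP-PS1 mice on control chow, 5 of wild-type mice on ibuprofen chow and 4 of wild-type mice on control chow. The comparisons ask how the genotype differs on each diet, how the diet differs in each genotype, and whether the diet difference depends on the genotype. APP-PS1 mice carry a mutant amyloid precursor protein gene (the Swedish mutation) and a presenilin gene with an exon deleted, and form amyloid plaques. In the widely used line of that name the prion protein promoter drives both. Ibuprofen inhibits the cyclooxygenases that make prostaglandins. All animals were kept with 12 hours of light a day. The labels give no hour of collection, sex, litter or array batch, and do not say whether a replicate is 1 animal or a pool, so p-values measure the spread between these samples. Hippocampal tissue mixes many cell types, in which fewer cells of a type and less RNA per cell cannot be told apart.

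The clock is a loop of transcription and repression with a period of about a day. The proteins of Arntl and of Clock (or of its relative Npas2) pair and bind E-boxes, and so activate the Per, Cry, Nr1d1 and Dbp genes. PER and CRY proteins return to the nucleus and repress that pair, NR1D1 (REV-ERB alpha) represses Arntl through ROR elements, and DBP is an output factor that activates genes with D-boxes. In mouse tissues Arntl RNA peaks roughly opposite in phase to Dbp and Nr1d1 RNA. The hippocampus runs such a clock under the lead of the suprachiasmatic nucleus.

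Promoter sequences were searched for the letters of short motifs, among them those of the E-box, D-box and ROR element named above. They are printed below for Per1, Per3, Cry1, Cry2 and Nr1d1. RefSeq promoter windows of GRCm38.p6, from 250 bases before to 50 bases after an annotated start, were matched for 9 of the 10 genes, Npas2 included, and held 13 starts. Both strands were searched for the E-box CACGTG (found in 7.15% of all 32851 windows), its variant CACGTT (4.68%), the D-box as TTATGTAA or TTATGCAA (1.66%), the ROR element core AGGTCA (16.3%) and the cyclic AMP element TGACGTCA (1.79%). The 250 bases before the start are printed from 5′ to 3′ on the gene's strand, with the letters found in capitals; a capital TGACCT or AACGTG is a match on the other strand. No match shared a base with another.
Per1: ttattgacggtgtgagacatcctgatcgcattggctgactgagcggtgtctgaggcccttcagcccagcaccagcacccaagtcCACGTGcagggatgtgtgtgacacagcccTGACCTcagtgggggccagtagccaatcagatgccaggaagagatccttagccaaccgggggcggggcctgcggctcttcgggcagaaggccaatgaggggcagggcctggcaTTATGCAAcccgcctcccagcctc
Per3: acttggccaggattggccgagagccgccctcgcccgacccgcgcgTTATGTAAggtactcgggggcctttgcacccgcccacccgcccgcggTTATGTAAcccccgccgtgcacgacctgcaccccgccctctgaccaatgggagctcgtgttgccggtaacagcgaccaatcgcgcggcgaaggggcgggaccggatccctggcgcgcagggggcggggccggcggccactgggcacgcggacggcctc
Cry1: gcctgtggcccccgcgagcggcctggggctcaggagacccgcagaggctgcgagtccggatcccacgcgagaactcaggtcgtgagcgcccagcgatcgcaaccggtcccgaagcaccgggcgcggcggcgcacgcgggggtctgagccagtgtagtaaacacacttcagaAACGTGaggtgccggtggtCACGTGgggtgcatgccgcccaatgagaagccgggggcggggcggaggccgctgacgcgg
Cry2: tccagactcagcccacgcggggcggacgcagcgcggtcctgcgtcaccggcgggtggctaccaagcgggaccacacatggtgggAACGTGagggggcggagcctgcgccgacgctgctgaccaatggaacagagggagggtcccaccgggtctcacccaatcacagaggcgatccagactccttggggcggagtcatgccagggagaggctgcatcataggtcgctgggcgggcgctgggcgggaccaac
Nr1d1: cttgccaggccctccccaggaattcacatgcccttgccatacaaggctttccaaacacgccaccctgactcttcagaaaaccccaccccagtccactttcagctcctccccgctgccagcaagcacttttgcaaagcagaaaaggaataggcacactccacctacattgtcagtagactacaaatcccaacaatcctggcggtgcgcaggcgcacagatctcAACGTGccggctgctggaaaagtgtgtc
The Per1 window printed is that of the first of 2 annotated starts, chr11:69098699-69098948 on the plus strand, and it held an E-box beginning 166 bases before the start, a ROR core at 137 and a D-box at 24. The window of the second Per1 start held none of the motifs. The Per3 window, chr4:151044666-151044915 on the minus strand, held D-boxes at 205 and 158 bases. The Cry1 window, chr10:85185055-85185304 on the minus strand, held the CACGTT variant at 79 and an E-box at 60 bases. The Cry2 window (chr2:92434070-92434319, minus strand) held the variant at 166 bases, and the Nr1d1 window (chr11:98775378-98775627, minus strand) held it at 28 bases. For Arntl the ROR core lay 32 bases after the second of 2 annotated starts, and for Clock 119 bases before the third of 3, and the windows of their other starts held none of the motifs. None of the motifs were found in the Dbp and Npas2 windows, and Per2 is named only. A match is a description of letters, not of binding.

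The labels were checked on the transgenes before the clock genes were compared. Prnp, the prion protein gene, stood at 13.40 ± 0.04 in APP-PS1 arrays on ibuprofen chow and 12.74 ± 0.07 in wild-type arrays on it (log2, SD, n = 5 each), a difference of 0.67 ± 0.03 (SE, adjusted p = 2.54e-11). Over all arrays the pyramidal cell markers averaged from 9.51 (Spink8) to 12.29 (Nptx1), and those of dentate granule cells from 7.57 (Tdo2) to 11.69 (Calb1). The mean of the suprachiasmatic nucleus markers ran from 8.21 to 8.41 per array in all groups. Its single markers ran from 7.04 (Nms) to 9.30 (Rgs16), which overlaps the range of the dentate markers. These arrays give no call of absence. Against the other arrays, 3 had a median correlation under 0.99, which was 0.9895 for APP-PS1 control chow replicate 1, 0.9873 for wild-type ibuprofen chow replicate 1 and 0.9739 for replicate 5 of that group; these are the arrays that stood apart. Their medians over all genes lay, in that order, 0.11, 0.12 and 0.27 above the median array, while those of the other arrays lay between -0.02 and 0.04. Over all 35556 probe sets the array medians ran from 8.06 to 8.14, so shifts of this size were found over the 19938 genes only. Because of these shifts, clock gene results are also given after each array was centred on its median over the genes. They are given without these arrays as well. Group differences of other listed genes are given on the deposited values only. Centring takes the same amount from every gene of an array, and whether that amount fits each gene was not tested.

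No clock gene passed the test in any of 7 comparisons. On ibuprofen chow all 9 genes had a lower mean in APP-PS1 than in wild-type mice. The differences ran from -0.29 to -0.05 on the log2 scale with a median of -0.16. Over all genes the median was -0.05, and 62.2% of genes lay below 0. At the adjusted p of 0.05, 0 of 9 clock genes were called, against 0.271% of all genes. At an unadjusted p under 0.05, 5 of 9 were lower (Cry2, Per3, Arntl, Per1 and Cry1), against 18.2% of all genes. After centring, 8 of 9 lay below 0 with a median of -0.09, and 3 had an unadjusted p under 0.05. After quantile normalization between arrays these values were 8 of 9, -0.05 and 3. Without the 3 arrays that stood apart the median was -0.12 with 3 such genes, and without wild-type ibuprofen chow replicate 5 alone it was -0.15 with 4. Here and below, shares of all genes below 0 or at an unadjusted p under 0.05 were counted on the deposited values of all arrays. How the counts under other settings compare with all genes was not tested.

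**Figure D1:**
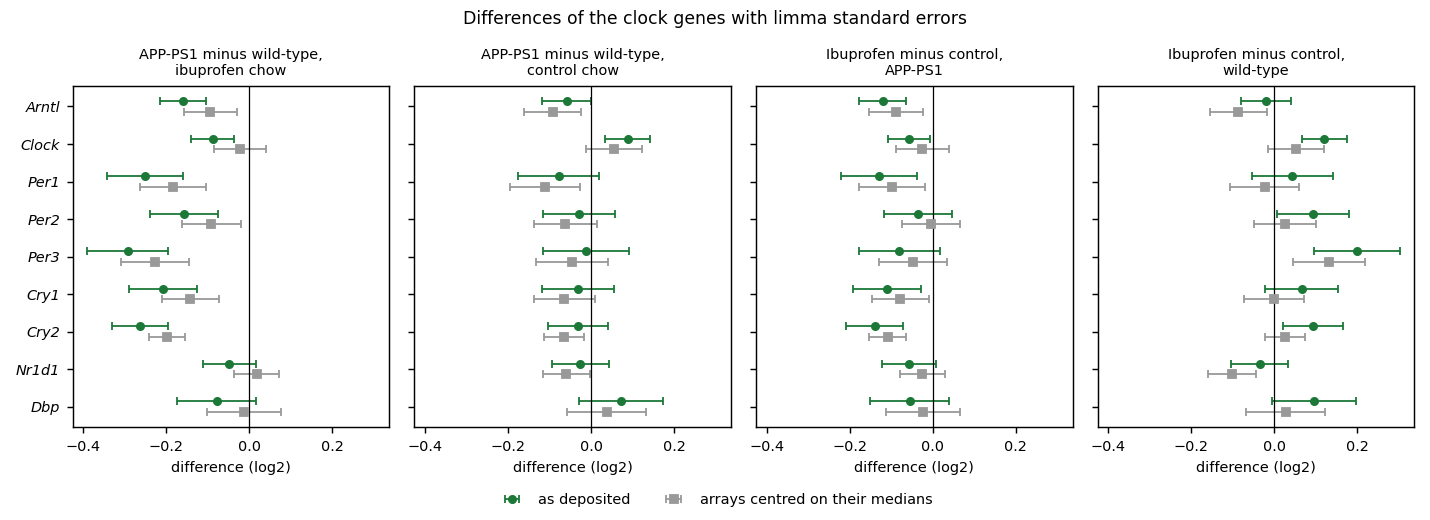
Differences of the 9 clock genes on the log2 scale (x axis) in 4 comparisons, with points for the fitted difference and bars for the limma standard error. Green circles are the deposited values and grey squares the values after each array was centred on its median. On ibuprofen chow all 9 green points lie left of 0, and Nr1d1 crosses to the right after centring.

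Arntl and Clock encode the activators of the loop. Arntl (probe set 10556463, gene at chr7:113178471-113314126 on GRCm38.p6) read 9.32, 9.36, 9.28, 9.26 and 9.21 in the APP-PS1 arrays on ibuprofen chow, against 9.49, 9.47, 9.49, 9.38 and 9.41 in the wild-type arrays on that chow. On control chow it read 9.38, 9.34, 9.48, 9.46 and 9.39 in APP-PS1 arrays, against 9.58, 9.45, 9.51 and 9.32 in wild-type arrays. Every APP-PS1 array on ibuprofen chow thus lay below every wild-type array on it, while the groups on control chow overlapped. Arntl was the 1 clock gene whose genotype groups did not overlap on ibuprofen chow, against 2.06% of all genes that separated in the lower direction. The difference was -0.16 ± 0.06 (SE), with unadjusted p = 0.00978 and adjusted p = 0.145. After centring the groups overlapped, at 9.23 to 9.38 in APP-PS1 mice against 9.16 to 9.54 in wild-type mice, and the difference was -0.09 ± 0.06 (SE, adjusted p = 0.37). The array that moved was wild-type ibuprofen chow replicate 5, which read 9.41 as deposited and was the lowest of its group at 9.16 once centred.

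Clock (probe set 10530733, chr5:76209868-76305603) read 10.96, 10.93, 11.09, 10.81 and 10.93 in APP-PS1 mice on ibuprofen chow, against 10.96, 11.09, 11.07, 11.02 and 11.02 in wild-type mice on it. On control chow the APP-PS1 arrays gave 11.04, 10.98, 11.05, 10.90 and 11.04, against 10.95, 10.99, 10.82 and 10.90 in wild-type mice. The order of the genotypes was opposite on the 2 diets, with APP-PS1 lower on ibuprofen chow (-0.09 ± 0.05, SE) and higher on control chow (0.09 ± 0.05, SE). Groups overlapped on both diets, and the adjusted p was 0.265 and 0.916. The difference between these differences was -0.18 ± 0.07 (SE, unadjusted p = 0.0268, adjusted p = 0.216). After centring the Clock difference was -0.02 ± 0.06 on ibuprofen chow and 0.06 ± 0.07 on control chow (SE), and the difference between them was -0.08 ± 0.09 (SE, unadjusted p = 0.41). Arntl and Clock varied little within groups. Their pooled SD within groups was 0.069 and 0.073, and 6.5% and 8.2% of genes had a smaller one, but after centring these shares were 39.9% and 41.7%.

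The Cry genes encode the main repressors of the activator pair. Cry2 (probe set 10485170, chr2:92403646-92434085) had the smallest p of the clock genes. It read 10.74, 10.91, 10.67, 10.73 and 10.68 in the APP-PS1 arrays on ibuprofen chow, against 10.98, 10.90, 10.93, 10.92 and 11.31 in the wild-type arrays on it. On control chow the values were 11.02, 10.86, 10.85, 10.83 and 10.85 in APP-PS1 arrays, against 10.86, 10.93, 10.96 and 10.91 in wild-type arrays. On ibuprofen chow 4 of 5 APP-PS1 arrays were lower than any wild-type array. The exception was APP-PS1 replicate 2 at 10.91, just above the lowest wild-type array at 10.90. What share of all genes has 4 of 5 arrays lower in this way was not counted, here or for Per1 and Per3 below. The difference on ibuprofen chow was -0.26 ± 0.07 (SE), with unadjusted p = 0.00077 and adjusted p = 0.0817. It was -0.20 ± 0.04 after centring (adjusted p = 0.0631), -0.19 ± 0.05 with wild-type ibuprofen chow replicate 5 left out (adjusted p = 0.144) and -0.17 ± 0.05 without the 3 arrays that stood apart (adjusted p = 0.184). On control chow Cry2 gave -0.03 ± 0.07 (SE, adjusted p = 0.986).

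Cry1 (probe set 10371400, chr10:85131700-85185054) read 8.39, 8.50, 8.66, 8.41 and 8.27 in APP-PS1 mice on ibuprofen chow, against 8.69, 8.48, 8.65, 8.56 and 8.89 in wild-type mice on it. On control chow it read 8.70, 8.52, 8.53, 8.50 and 8.55 in APP-PS1 arrays, against 8.60, 8.56, 8.76 and 8.44 in wild-type arrays. The groups overlapped on both diets. On ibuprofen chow the difference was -0.21 ± 0.08 (SE, unadjusted p = 0.02, adjusted p = 0.159), and after centring -0.14 ± 0.07 (unadjusted p = 0.0521).

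The Per genes encode the partners of the CRY proteins, and Per1 and Per2 also respond to light, hormones and neuronal activity. Per1 (probe set 10377439, chr11:69095108-69109965) read 9.95, 10.16, 9.93, 9.82 and 9.84 in APP-PS1 mice on ibuprofen chow, against 10.08, 10.08, 10.13, 10.16 and 10.51 in wild-type mice on it. On control chow it read 10.12, 10.16, 9.91, 10.01 and 10.16 in APP-PS1 arrays, against 9.90, 10.19, 10.40 and 10.11 in wild-type arrays. As for Cry2, 4 of 5 APP-PS1 arrays on ibuprofen chow were lower than any wild-type array and replicate 2 was not. The Per1 difference on ibuprofen chow was -0.25 ± 0.09 (SE, unadjusted p = 0.0124, adjusted p = 0.148), and -0.18 ± 0.08 after centring (unadjusted p = 0.03, adjusted p = 0.209).

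Per3 (probe set 10518781, chr4:150997018-151044707), the Per gene whose protein is least needed for the rhythm in mice, had the largest difference. It read 9.26, 9.57, 9.13, 9.38 and 9.46 in APP-PS1 mice on ibuprofen chow, against 9.68, 9.49, 9.65, 9.49 and 9.96 in wild-type mice on it. On control chow its values were 9.46, 9.55, 9.35, 9.34 and 9.51 in APP-PS1 arrays, against 9.27, 9.50, 9.71 and 9.34 in wild-type arrays. Again all APP-PS1 arrays on ibuprofen chow but replicate 2 lay below every wild-type array on it. The difference was -0.29 ± 0.10 (SE, unadjusted p = 0.00659, adjusted p = 0.137), and -0.23 ± 0.08 after centring (unadjusted p = 0.0115, adjusted p = 0.186). Without the 3 arrays that stood apart it was -0.18 ± 0.10 (unadjusted p = 0.0826).

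Per2 (probe set 10356601, chr1:91415977-91459351) read 9.38, 9.57, 9.60, 9.27 and 9.45 in APP-PS1 mice on ibuprofen chow, against 9.55, 9.60, 9.57, 9.54 and 9.80 in wild-type mice on it. On control chow the APP-PS1 arrays read 9.68, 9.54, 9.27, 9.42 and 9.54, against 9.41, 9.60, 9.66 and 9.42 in wild-type arrays. The groups overlapped, and the difference on ibuprofen chow was -0.16 ± 0.08 (SE, unadjusted p = 0.068, adjusted p = 0.228). It was -0.09 ± 0.07 after centring.

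Nr1d1, the repressor of Arntl, and Dbp, the output factor, differed least between the genotypes on ibuprofen chow. Nr1d1 (probe set 10390691, chr11:98767932-98775377) read 12.12, 12.18, 12.05, 12.00 and 11.98 in APP-PS1 mice on ibuprofen chow, against 12.08, 12.08, 12.02, 12.02 and 12.37 in wild-type mice on it. On control chow it read 12.19, 12.15, 12.06, 12.11 and 12.12 in APP-PS1 arrays, against 11.95, 12.17, 12.29 and 12.20 in wild-type arrays. Its difference on ibuprofen chow was -0.05 ± 0.06 (SE, adjusted p = 0.633), and the sign turned after centring (0.02) and without wild-type ibuprofen chow replicate 5 (0.02). Dbp (probe set 10553092, chr7:45705100-45710203) read 10.93, 10.88, 10.54, 10.86 and 10.87 in APP-PS1 mice on ibuprofen chow, against 10.60, 10.84, 10.91, 10.90 and 11.23 in wild-type mice on it. On control chow the values were 10.85, 10.94, 10.70, 10.89 and 10.97 in APP-PS1 arrays, against 10.64, 10.95, 10.68 and 10.93 in wild-type arrays. Each group held at least 1 array at or below 10.70 and others at or above 10.85. The Dbp difference on ibuprofen chow was -0.08 ± 0.10 (SE, adjusted p = 0.59), with an interval from -0.28 to 0.12. Without wild-type ibuprofen chow replicate 5 its sign turned (0.01). Dbp had the widest spread of the clock genes, with a pooled SD within groups of 0.168, and 82.6% of genes had a smaller one. For Per3 these values were 0.167 and 81.8%, for Per1 0.158 and 77.2%. After centring the shares were 75.9% for Dbp, 66.6% for Per3 and 64.8% for Per1.

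**Figure D2:**
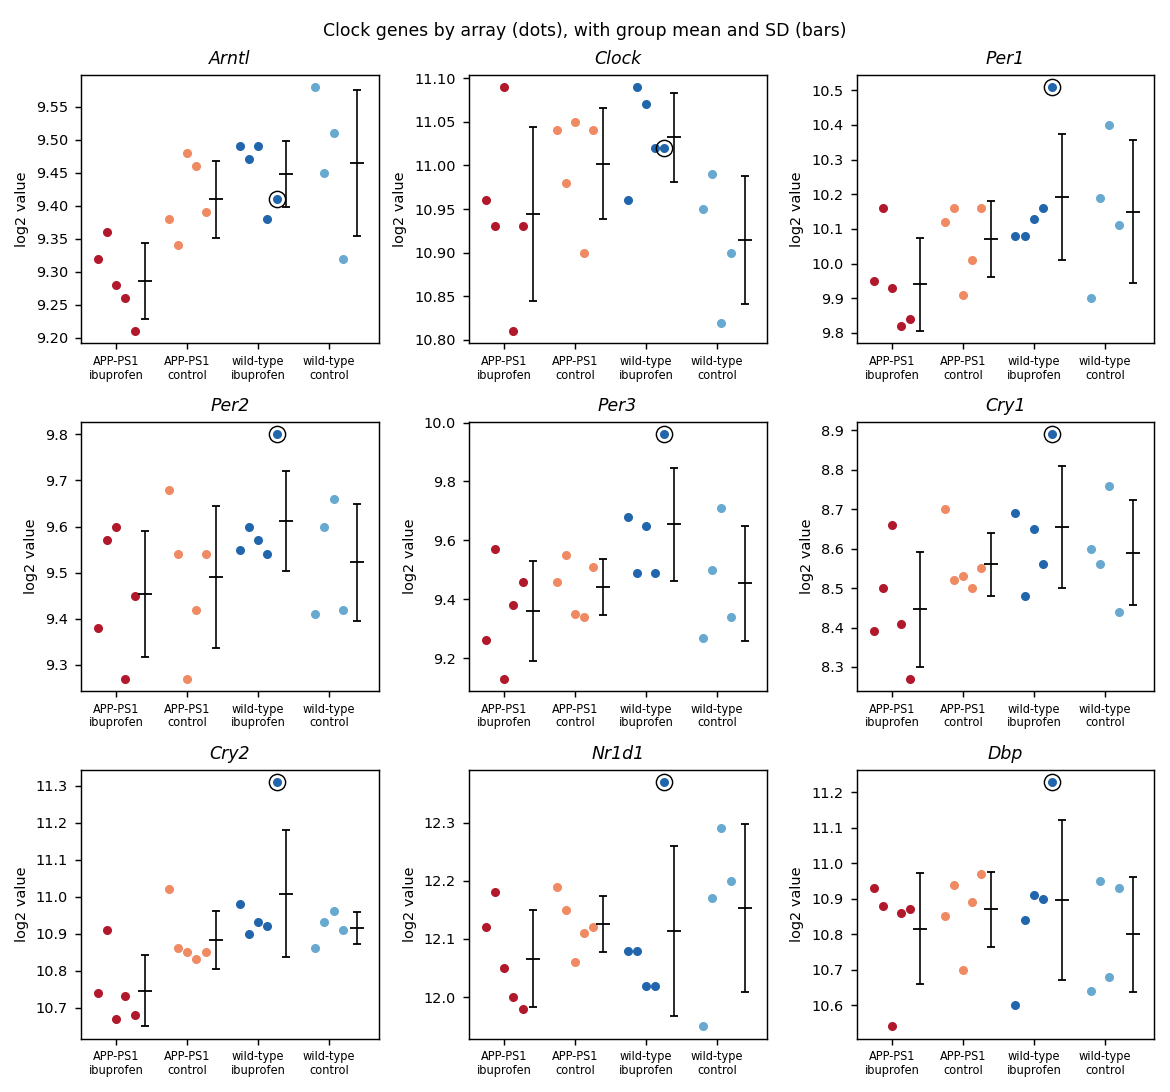
Log2 value of each clock gene in every array (dots), in its own panel and on its own y axis, with the group mean and SD as bars (n = 5, 5, 5 and 4 arrays from left to right). The ringed dot is wild-type ibuprofen chow replicate 5, the highest of all arrays for 7 of the 9 genes.

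On control chow the genotypes were close for every clock gene. The 9 differences of APP-PS1 from wild-type ran from -0.08 to 0.09, 7 of them below 0 (42.1% of all genes), with a median of -0.03 against 0.02 over all genes, -0.06 after centring and -0.07 after quantile normalization. With 0 of 9 called, against 0.0100% of all genes at the adjusted threshold, and 0 of 9 at an unadjusted p under 0.05, against 5.87%, no difference was detectable with this number of arrays. The 95% intervals reached from -0.28 to 0.28. Without wild-type control chow replicate 3, an array with high Per and Cry values, 2 of 9 lay below 0 and the median was 0.02, and over leaving out each array in turn it ran from -0.05 to 0.02.

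The ibuprofen comparison within APP-PS1 mice shares its ibuprofen group with the genotype comparison above, so the 2 are not independent. All 9 clock genes had a lower mean on ibuprofen chow, where 58.2% of all genes lay below 0. The median was -0.08, against -0.02 over all genes, and -0.12 with APP-PS1 ibuprofen chow replicate 2 left out. It was -0.05 after centring, with 9 of 9 below 0, and -0.02 after quantile normalization, with 6 of 9 below 0. None of the 9 was called (0.00% of all genes), and 1 of 9 had an unadjusted p under 0.05 in the lower direction, against 4.66%. This was Arntl, at 9.29 ± 0.06 on ibuprofen chow and 9.41 ± 0.06 on control chow (SD, n = 5 each), a difference of -0.12 ± 0.06 (SE, unadjusted p = 0.0439, adjusted p = 0.716). Cry2 gave -0.14 ± 0.07 (SE, unadjusted p = 0.0501, adjusted p = 0.716).

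In wild-type mice 7 of 9 clock genes had a higher mean on ibuprofen chow and 2 of 9 a lower one, where 33.2% of all genes lay below 0, with a median of 0.09 against 0.05 over all genes. Again 0 of 9 were called (0.00% of all genes), and 1 of 9 was higher at an unadjusted p under 0.05, against 9.08%. Clock was at 11.03 ± 0.05 on ibuprofen chow (SD, n = 5) and 10.91 ± 0.07 on control chow (SD, n = 4), a difference of 0.12 ± 0.05 (SE, unadjusted p = 0.038, adjusted p = 0.432). It was 0.05 after centring (unadjusted p = 0.441) and 0.04 after quantile normalization (unadjusted p = 0.458). Per3 gave 0.20 ± 0.10 (SE, adjusted p = 0.432). Leaving out wild-type ibuprofen chow replicate 5 gave a median of 0.01, leaving out wild-type control chow replicate 1 or 4 gave 0.06, centring gave 0.03 with 4 of 9 below 0, and quantile normalization gave 0.00 with 4 of 9 below 0.

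For the interaction, the ibuprofen difference in APP-PS1 mice minus that in wild-type mice, 9 of 9 clock genes lay below 0, where 64.4% of all genes did. The median was -0.17, against -0.07 over all genes, and -0.11 with wild-type ibuprofen chow replicate 5 left out. It was -0.07 after centring, with 8 of 9 below 0, and -0.01 after quantile normalization, with 6 of 9 below 0. Here 0 of 9 were called (0.00% of all genes) and 2 of 9 were lower at an unadjusted p under 0.05, against 16.0%. Besides Clock this was Cry2, at -0.23 ± 0.10 (SE, unadjusted p = 0.0277, adjusted p = 0.217). After centring neither of them, nor any other clock gene, had an unadjusted p under 0.05. Averaged over diets, the genotype difference was lower at an unadjusted p under 0.05 for 4 of 9 genes, against 5.36% of all genes, and called for 0 of 9, against 0.0251%. These were Cry2 at -0.15 ± 0.05 (SE, adjusted p = 0.436), Arntl at -0.11 ± 0.04 (SE, adjusted p = 0.537), Per1 at -0.16 ± 0.07 (SE) and Per3 at -0.15 ± 0.07 (SE); each of them had the larger difference on ibuprofen chow, as given above. Averaged over genotypes, ibuprofen gave 0 of 9 called (0.00%) and 0 of 9 at an unadjusted p under 0.05, against 1.74%.

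Between single arrays the clock genes did not vary independently. In wild-type ibuprofen chow replicate 5 all 9 genes lay above their means over all arrays, by a median of 0.33, and 7 of them had their highest value there. The median of all genes was itself 0.27 above that of the median array in that replicate, and after centring 7 of 9 clock genes lay above their means, by a median of 0.08. Wild-type control chow replicate 3, whose all-gene median was at that of the median array, had 7 of 9 clock genes above their means by a median of 0.14. After centring it held the highest value of all arrays for 5 genes. Its Clock and Dbp values were low in the same array, at 10.82 and 10.68. In wild-type control chow replicate 1 Arntl had its highest value of all arrays (9.58) and Nr1d1 its lowest (11.95). APP-PS1 ibuprofen chow replicates 4 and 5 each had 1 of 9 genes above its mean, before and after centring.

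**Figure D3:**
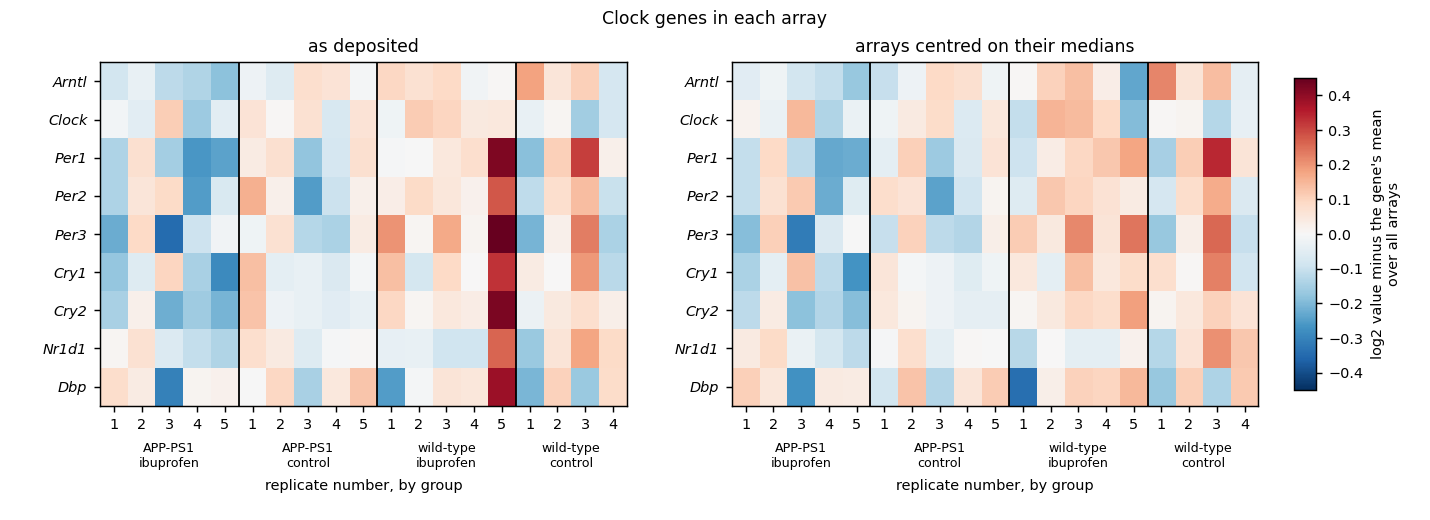
Deviation of each clock gene (rows) from its mean over all arrays in every array (columns, by group and replicate number), on the log2 scale from blue (below) to red (above), as deposited and after centring on array medians. The red column of wild-type ibuprofen chow replicate 5 fades after centring, while wild-type control chow replicate 3 stays red for Per1, Per2, Per3, Cry1 and Nr1d1.

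To describe this, the 36 pairs of clock genes were correlated over the 19 arrays after the group means were taken away, with p-values from 100000 permutations within groups (two-sided), adjusted over the 36 pairs. Of the 36 pairs 10 passed, all with r above 0 and all among the 7 repressor and output genes (10 of their 21 pairs). By Spearman's rho 6 pairs passed. The 15 pairs with Arntl or Clock gave 0 that passed, with r from -0.47 to 0.27. The median r of the 36 pairs was 0.43 as deposited and 0.27 after centring, and the part of arrays with raised medians in these correlations was not tested. Against all other genes the median r was 0.18 for Per1 and for Per2, 0.22 for Per3 and for Cry1, 0.25 for Nr1d1, 0.36 for Cry2, 0.12 for Dbp, -0.09 for Arntl and -0.06 for Clock, and after centring it lay between -0.08 and 0.19 for all 9.

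Per1 and Nr1d1 were the closest pair, with r = 0.91 (permutation p = 0.00012, adjusted p = 0.00216) and rho = 0.83 (adjusted p = 0.00816). Without the 2 arrays farthest from the Per1 median r was 0.83. It was 0.88 after centring (adjusted p = 0.00324) and 0.88 without the 3 arrays that stood apart (adjusted p = 0.022). Per1 and Per2 had r = 0.78 (permutation p = 0.00018, adjusted p = 0.00216) and rho = 0.78 (adjusted p = 0.00816), and r = 0.72 without the 2 farthest arrays. For this pair r was 0.71 after centring (adjusted p = 0.0177) and 0.77 without the 3 arrays (adjusted p = 0.0408). These 2 pairs passed as deposited, after centring, without the 3 arrays and without wild-type ibuprofen chow replicate 5.

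Cry2 and Nr1d1 followed with r = 0.83 (permutation p = 0.00014, adjusted p = 0.00216) and rho = 0.82 (adjusted p = 0.00816), and r = 0.64 without the 2 farthest arrays. After centring r was 0.65 (adjusted p = 0.0128), and without the 3 arrays 0.66 (adjusted p = 0.0706). Per1 and Cry2 had r = 0.76 (adjusted p = 0.0107), rho = 0.62 (adjusted p = 0.0437), r = 0.64 without the 2 farthest arrays and r = 0.69 after centring (adjusted p = 0.0128). Their r was 0.61 and did not pass (adjusted p = 0.0994) once wild-type ibuprofen chow replicate 5 was left out. The other 6 pairs, which were Per1 with Per3, Per2 with Cry1, Cry2 and Nr1d1, and Per3 with Cry2 and Nr1d1, had r from 0.58 to 0.77 as deposited and 0.32 to 0.68 after centring, where none passed.

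**Figure D4:**
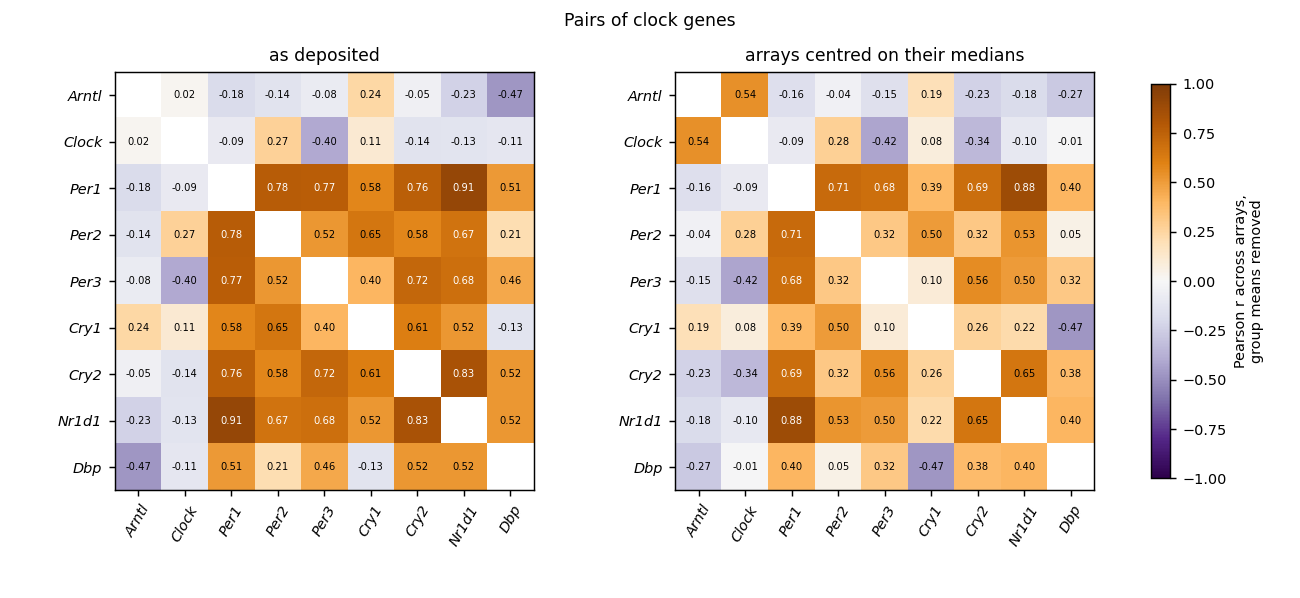
Pearson r of each pair of clock genes over the 19 arrays with group means removed, as deposited (left) and after centring on array medians (right), from purple (below 0) to orange (above 0). The Per, Cry2 and Nr1d1 block stays above 0 in both, with 0.91 and 0.88 for Per1 with Nr1d1, and the Arntl and Clock rows lie between -0.47 and 0.28 except with each other after centring (0.54).

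Arntl and Dbp, genes of opposite phase in mouse tissues, had the lowest r of all pairs, at -0.47, but it did not pass (permutation p = 0.0532, adjusted p = 0.137) and was -0.27 after centring. Their rho was -0.50. Arntl and Nr1d1, also of opposite phase, had r = -0.23 (permutation p = 0.456, adjusted p = 0.657) and rho = -0.17. For this pair r was 0.04 without the 2 arrays farthest from the Arntl median, and -0.18 after centring. Dbp, although activated through the same loop, passed with none of the other genes, at r with the Per, Cry and Nr1d1 genes from -0.13 with Cry1 (-0.47 after centring) to 0.52 with Cry2 and Nr1d1. Arntl and Clock had r = 0.02 as deposited and 0.54 after centring (adjusted p = 0.21).

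**Figure D5:**
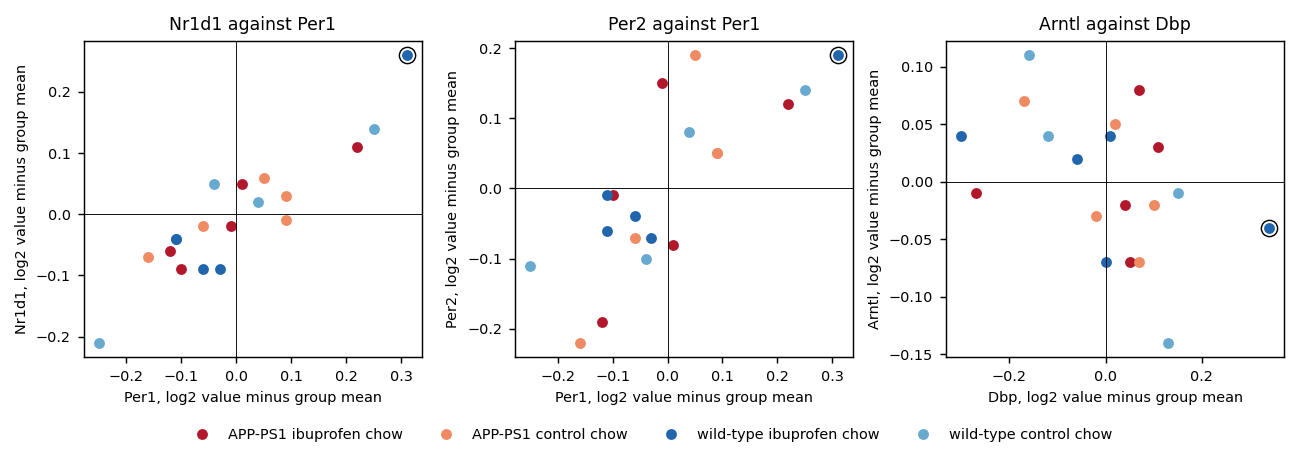
Deviation from the group mean in log2 units of Nr1d1 against Per1, Per2 against Per1 and Arntl against Dbp, 1 dot per array, coloured by group, with wild-type ibuprofen chow replicate 5 ringed. The first 2 panels slope upward in all 4 groups together (r = 0.91 and 0.78), and the third slopes downward without passing the test (r = -0.47).

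By likeness over the same deviations in 19 arrays, given as a description, the genes closest to Dbp were Hes6 (r = 0.89), Trp53i13 (0.87), G6pc3 (0.82), Wdr6 (0.81) and Mfge8 (0.81). Those closest to Arntl were Sap30bp (0.77), Ndufaf6 (0.75), D030056L22Rik (0.74), Tmem230 (0.73) and Pcdhb8 (0.73). After centring these values were 0.76 to 0.88 for Dbp and 0.70 to 0.89 for Arntl. All of them come from the same arrays and share their signal levels.

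Of a wider list of 22 clock genes outside the 10, covering other regulators, kinases, ubiquitin ligases and outputs, 20 were measured. On ibuprofen chow 18 of 20 had a lower mean in APP-PS1 mice, where 62.2% of all genes lay below 0. The median was -0.10, against -0.05 over all genes. At an unadjusted p under 0.05, 8 were lower and 1 higher (18.2% and 6.25% of all genes), with 0 of 20 called (0.271% of all genes). The lower genes included Hlf and Tef, which encode relatives of DBP that bind the same D-boxes. Hlf was at 10.94 ± 0.11 in APP-PS1 mice and 11.18 ± 0.16 in wild-type mice (SD, n = 5 each), a difference of -0.24 ± 0.07 (SE, adjusted p = 0.114), and Tef gave -0.18 ± 0.06 (SE, adjusted p = 0.136). Arntl2, a relative of Arntl, was at 8.55 ± 0.11 in APP-PS1 mice and 8.78 ± 0.08 in wild-type mice (SD, n = 5 each), a difference of -0.23 ± 0.06 (SE, adjusted p = 0.107). Wee1, a cell cycle kinase gene under clock control, gave -0.16 ± 0.06 (SE, adjusted p = 0.145), and Usp2, Csnk1e, Cipc and Rorb lay between -0.18 and -0.11. The higher gene was Bhlhe41, a repressor that binds E-boxes, at 0.25 ± 0.11 (SE, adjusted p = 0.17).

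In the other comparisons the genes of this list given next had an unadjusted p under 0.05. In each of them 0 of 20 were called, against 0.00% to 0.0251% of all genes. On control chow 8 of 20 lay below 0, where 42.1% of all genes did, and 1 was higher (Fbxw11, at 0.15 ± 0.06, SE), against 4.80%. Ibuprofen in APP-PS1 mice gave 2 lower, against 4.66% of all genes, which were Wee1 at -0.21 ± 0.06 (SE, unadjusted p = 0.00127) and Hlf at -0.21 ± 0.07 (SE, unadjusted p = 0.00602), both with adjusted p = 0.716. Ibuprofen in wild-type mice gave 1 higher, against 9.08%, which was Arntl2 at 0.15 ± 0.07 (SE, adjusted p = 0.432). For the interaction 18 of 20 lay below 0, where 64.4% of all genes did, and 5 were lower, against 16.0%, namely Arntl2, Fbxl21, Fbxw11, Tef and Wee1, the last at -0.27 ± 0.08 (SE, adjusted p = 0.208). Averaged over diets, Hlf (-0.15 ± 0.05, SE) and Arntl2 (-0.12 ± 0.05, SE) were lower in APP-PS1 mice, against 5.36% of all genes, and Bhlhe41 was higher (0.16 ± 0.08, SE), against 2.34%. Averaged over genotypes, Hlf was lower on ibuprofen chow (-0.12 ± 0.05, SE), against 0.466% of all genes. The mean of the list in each array followed Per3 (r = 0.83, adjusted p = 0.0199, rho = 0.82, r = 0.75 without the 2 farthest arrays), but after centring r was 0.33 (adjusted p = 0.733). Per1 (r = 0.79), Cry2 (0.78), Nr1d1 (0.78) and Per2 (0.71) followed it as well, at 0.40, 0.04, 0.36 and 0.42 after centring. Among 117 relations of a clock gene to a list mean, 8 passed as deposited and 0 after centring. Besides these 5, Cry2 passed with the pyramidal cell markers (r = 0.78, adjusted p = 0.0291, rho = 0.64, and 0.46 after centring), and Per2 with the striatal markers (r = 0.65, adjusted p = 0.0487, rho = 0.59, and 0.51 after centring). The eighth was Per2 with the immediate early genes, given further on.

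Per1 and some other clock genes also respond to glucocorticoids, so genes that these hormones induce were read beside them. Of 13 measured, 10 lay below 0 on ibuprofen chow (62.2% of all genes), with a median of -0.12, and 4 were lower at an unadjusted p under 0.05 (18.2% of all genes), with 0 called. Zbtb16, a transcription factor gene, was at 11.41 ± 0.19 in APP-PS1 mice and 11.75 ± 0.12 in wild-type mice (SD, n = 5 each), a difference of -0.34 ± 0.08 (SE, adjusted p = 0.0635). Fkbp5, which encodes a chaperone of the glucocorticoid receptor, gave -0.26 ± 0.10 (SE), Tsc22d3 -0.31 ± 0.12 (SE) and Klf9 -0.19 ± 0.06 (SE). In wild-type mice all 13 had a higher mean on ibuprofen chow, where 33.2% of all genes lay below 0. Their median was 0.11, against 0.05 over all genes. These are deposited values, and wild-type ibuprofen chow replicates 1 and 5 were among the arrays with raised medians. At an unadjusted p under 0.05, 2 of the 13 genes were higher (9.08% of all genes), Klf9 at 0.14 ± 0.06 and Mt2, a metallothionein gene, at 0.10 ± 0.05 (SE). In APP-PS1 mice 8 of 13 lay below 0 on ibuprofen chow, where 58.2% of all genes did, and 2 were lower, against 4.66%. These were Zbtb16 at -0.18 ± 0.08 and Errfi1, an inhibitor of the EGF receptor, at -0.12 ± 0.06 (SE). For the interaction 11 of 13 lay below 0, where 64.4% of all genes did, and 4 were lower, against 16.0%. These were Fkbp5 at -0.34 ± 0.14, Zbtb16 at -0.29 ± 0.12, Klf9 at -0.23 ± 0.09 and Errfi1 at -0.19 ± 0.08 (SE). On control chow Errfi1 was the 1 gene of the 13 at an unadjusted p under 0.05. It was higher in APP-PS1 mice at 0.17 ± 0.06 (SE), against 4.80% of all genes. Averaged over diets Zbtb16 was lower in APP-PS1 mice (-0.20 ± 0.06, SE), against 5.36% of all genes. Averaged over genotypes Mt1 and Mt2 were higher on ibuprofen chow, at 0.10 ± 0.04 and 0.09 ± 0.03 (SE), against 1.27% of all genes. In all 7 comparisons 0 of the 13 were called, against 0.00% to 0.271% of all genes. Between arrays the clock genes correlated with the mean of the 13 at r from -0.15 (Arntl) to 0.72 (Per1), and none passed by r. For Per1 the adjusted permutation p was 0.0604 for r and 0.0409 for rho (0.72). After centring r was 0.61 for Per1 (adjusted p = 0.68). Per2 had r = 0.64 (adjusted p = 0.0604), and 0.52 after centring.

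Immediate early genes are induced by neuronal activity, as Per1 is. Of 14 measured, 14 lay below 0 in APP-PS1 mice on control chow (median -0.18), where 42.1% of all genes did, and 9 on ibuprofen chow (median -0.09), where 62.2% did. At an unadjusted p under 0.05, Arc (-0.28 ± 0.13, SE) and Nr4a1 (-0.29 ± 0.10, SE) were lower on control chow, against 1.07% of all genes. On ibuprofen chow it was Nr4a3 (-0.30 ± 0.08, SE, adjusted p = 0.0907), against 18.2%. Averaged over diets 5 of 14 were lower in APP-PS1 mice, against 5.36% of all genes. These were Npas4 at -0.30 ± 0.12, Nr4a3 at -0.23 ± 0.06, Nr4a1 at -0.20 ± 0.07, Egr1 at -0.19 ± 0.08 and Egr4 at -0.12 ± 0.05 (SE). Ibuprofen in APP-PS1 mice gave Ier2 higher at 0.14 ± 0.06 (SE), against 1.82% of all genes, and Nr4a2 lower at -0.15 ± 0.07 (SE), against 4.66%. In wild-type mice it gave Nr4a1 lower at -0.23 ± 0.10 (SE), against 1.95%. For the interaction Fos (0.44 ± 0.19, SE) and Ier2 (0.25 ± 0.09, SE) were higher, against 4.50% of all genes. Averaged over genotypes Nr4a2 was lower on ibuprofen chow (-0.11 ± 0.05, SE), against 0.466% of all genes. In all 7 comparisons 0 of the 14 were called, against 0.00% to 0.271% of all genes. Per2 followed the immediate early gene mean between arrays (r = 0.69, adjusted p = 0.0415, rho = 0.78, r = 0.58 without the 2 farthest arrays), with r = 0.61 after centring (adjusted p = 0.68).

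Among 10 lists of cell type and region markers, that of dentate granule cells held genes called for the genotype on ibuprofen chow, and the other 9 held 0. Of 7 dentate granule cell markers 6 lay below 0 (62.2% of all genes), and 3 passed the adjusted test as lower (0.271% of all genes were called). The lists were chosen with earlier results of these data known, so these counts are a description. The mean of the 7 dentate granule cell markers ran from 9.85 to 10.39 in APP-PS1 arrays on ibuprofen chow, against 10.40 to 10.69 in wild-type arrays on it, without overlap. On control chow it ran from 10.23 to 10.65 in APP-PS1 arrays, against 10.33 to 10.57 in wild-type arrays. With that mean as a covariate, the median of the clock genes was -0.16, as it was without it. Cry2 gave -0.16 ± 0.11 (SE), Per3 -0.18 ± 0.16 (SE) and Arntl -0.11 ± 0.09 (SE). Without the covariate these were -0.26 ± 0.07, -0.29 ± 0.10 and -0.16 ± 0.06 (SE), so the standard errors were larger with it. Of the 9 clock genes 7 lay below 0, and 0 had an unadjusted p under 0.05. Since the marker mean separates the groups compared, its part in these differences cannot be told apart from the genotype. The mean of the 8 choroid plexus markers ran from 8.65 to 10.86 in APP-PS1 arrays on ibuprofen chow, against 8.17 to 11.04 in wild-type arrays on it, and with it as a covariate the median of the clock genes was -0.17. Of the 8 pyramidal cell markers, 4 were lower at an unadjusted p under 0.05 (18.2% of all genes), with a median of -0.22. Their part in the clock gene differences was not tested.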

How the data were processed

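Hippocampal RNA from 19 samples was hybridized to Affymetrix arrays. The authors deposited 1 log2 value per probe set and array, for which the submitters' processing notes name Partek 6.5 and RMA; the settings are not given in the sources used here. Values ran from 3.46 to 14.80. RMA tends to compress differences of dim probe sets, and the number of arrays limits the precision.

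The values cover 35556 probe sets, of which a 2016 annotation gave 21789 a single symbol, 1621 several and 12146 none here. Each gene was read from the probe set with its symbol alone and the highest mean, which left 19938 genes, 999 of them with several such probe sets. Groups came from the genotype and diet labels.

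All groups entered a single limma model of group means (limma 3.58.1, R 4.3.3, package data.table, version 1.17.8), with an intensity trend and 15 residual degrees of freedom. Tests were two-sided and adjusted by Benjamini and Hochberg over all 19938 genes, with a threshold of 0.05, and the fit was tested on simulated data. Errors of differences are standard errors and those of means are standard deviations. Pairs of clock genes were tested by 100000 permutations within groups. The pair test was planned for 10 genes and run on 9. Figures and permutations used Python 3.11.15, numpy 2.4.6, scipy 1.17.1 and matplotlib 3.10.9.

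The clock genes are always named. Genes of the lists of other clock, glucocorticoid-responsive and immediate early genes are named at an unadjusted p under 0.05 in a comparison, and the 5 genes most like Arntl and like Dbp by r. The members and lists were chosen with earlier results of these data known. Marker lists for the genotype on ibuprofen chow gave medians of 0.70 for choroid plexus, -0.03 for oligodendrocytes, 0.00 for astrocytes, 0.02 for microglia, -0.02 for endothelial cells, 0.13 for striatum, 0.03 for thalamus and 0.04 for the suprachiasmatic nucleus, each with 0 genes called. Those of dentate and pyramidal cells are given with the results.

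The groups share replicate numbers. Deviations from group means correlated between same-numbered arrays at -0.27 to 0.60 (median 0.13, 27 pairs, 17 over 0.1). Between arrays of different number they correlated at -0.47 to 0.37 (median -0.05, 108 pairs, 29 over 0.1). Same-numbered arrays were thus more alike at the median. The labels do not say what the numbers stand for, so they were not taken as pairs in the main model and the block is an alternative. The other alternatives were array weights, array centring, quantile normalization, a model of the compared groups alone, marker means as covariates, changed empirical Bayes settings, changed handling of probe sets, dim genes left out, and arrays left out. Centring for the gene pairs was chosen after seeing the data.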

Additional observations from a re-analysis of the deposited data

Results flagged for a closer look

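In each of the 36 sets of 4 or 5 values (9 clock genes in 4 groups), the highest and the lowest array were checked for a gap to the next array that is large against the range of the group (Dixon's test at 95%). Of the 36 sets 7 held such an array. Chance gives about 1 in 20 for independent sets, but the 9 genes were read on the same arrays, so these sets are not independent. In wild-type ibuprofen chow replicate 5 these were Per1 at 10.51, Per2 at 9.80, Cry2 at 11.31 and Nr1d1 at 12.37, each the highest of its group. In that array the median of all genes lay 0.27 above the median array. In APP-PS1 control chow replicate 1 they were Cry1 at 8.70 and Cry2 at 11.02, each the highest of its group, with the median of all genes 0.11 above the median array. Dbp in APP-PS1 ibuprofen chow replicate 3 was the lowest of its group at 10.54, in an array whose median of all genes was that of the median array. After each array was centred on its median, wild-type ibuprofen chow replicate 5 held the highest value of all arrays for 2 of the 9 genes, in place of 7, and the lowest for 2.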

How the results depend on the processing

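For the genotype on ibuprofen chow, where 0 of 9 clock genes were called, 2 were called with array weights (Cry2, adjusted p = 0.00927, and Arntl, adjusted p = 0.0278). Over leaving out each array in turn the count was 0 to 2. It was 1 without APP-PS1 ibuprofen chow replicate 2 (Cry2, at adjusted p = 0.0252), and it was 2 once wild-type ibuprofen chow replicate 4 was left out (Cry2, adjusted p = 0.0381, and Per3, adjusted p = 0.0498). The smallest adjusted p of a clock gene otherwise ran from 0.0621 with the replicate block to 0.879 with the dentate covariate. For the genotype averaged over diets 2 were called with array weights (Cry2, adjusted p = 0.0366, and Arntl, adjusted p = 0.0429). With the replicate number as a block 0 of 9 were called in each of the 7 comparisons, and the block changed no call of a clock gene. In the other 5 comparisons 0 of 9 were called under every alternative and leave-out that was run. Of all genes, 54 were called on ibuprofen chow, against 1004 with array weights, 197 with the block, 128 without the dimmest genes, 91 with a robust prior, 33 without the 3 arrays that stood apart, 5 with the compared groups alone, 2 with the dentate covariate, and 10 to 1490 over the leave-outs. Of 36 gene pairs 10 passed, against 3 without the 3 arrays that stood apart, 5 after quantile normalization, 4 after centring (chosen after seeing the data), 15 with the grand mean in place of group means, and 3 to 14 over the leave-outs (14 without APP-PS1 ibuprofen chow replicate 3, and 3 when wild-type ibuprofen chow replicate 5 was left out). The cause of these changes was not tested. With 4 or 5 arrays a group, and standard errors of 0.05 to 0.10 in the comparisons of 2 groups, differences of the size seen on control chow could not be resolved. With no hour of collection in the labels, differences between groups in the hour of collection and in clock gene level cannot be told apart.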
